A study of Mus musculus with 26 samples.

Results

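The 9 genes described here, Slc3a2, Slc7a5, Slc7a1, Slc7a3, Slc1a4, Slc1a5, Slc6a9, Slc38a1 and Slc38a4, encode carriers that move amino acids across the plasma membrane. They were taken by symbol from tables of 20430 genes for RNA and 19941 genes for ribosome footprints; all 9 were present in both tables and all 9 passed the filter on low counts in every fit. The cells were NIH3T3, an established line of mouse embryonic fibroblasts, and the labels name no genetic change and no agent common to all groups. Poly(A)-selected RNA was sequenced in 16 libraries of 8 groups from a pair of experiments. The heat experiment held a control, cells kept at 44 °C for 2 h and cells kept at 42 °C for 8 h. The other experiment held a control shared by both agents, cells under oxidative stress with H2O2 for 2 h or 7 h, and cells under osmotic stress with KCl for 2 h or 7 h. Ribosome footprints, the stretches of mRNA covered by ribosomes, were sequenced in 10 libraries of the control, H2O2 and KCl groups; no heat footprints were analysed here. Each group had 2 replicates, numbered in the labels without saying whether they were separate cultures, so p-values measure only the spread between these libraries, which may be technical. The labels give no concentration of H2O2 or KCl and no time for the controls.

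Cells take up amino acids through carriers that differ in substrate and in what drives them. Slc3a2 (CD98 heavy chain) carries no substrate itself; it brings partners such as Slc7a5, the exchanger of large neutral amino acids including leucine, and Slc7a11, the cystine-glutamate exchanger, to the cell surface. Slc7a1 and Slc7a3 carry the cationic amino acids arginine and lysine. Slc1a4 and Slc1a5 are sodium-dependent carriers of small neutral amino acids, Slc1a5 being a main route for glutamine. Slc6a9 is a glycine transporter, and Slc38a1, Slc38a4 and the related Slc38a2 are sodium-coupled carriers of glutamine, alanine and other neutral amino acids. Many of these genes are known to be switched on by the transcription factor ATF4 when amino acids run short or proteins misfold, and sodium-coupled uptake is known to rise in cells placed in a hypertonic medium, where amino acids serve as compatible osmolytes.

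RNA libraries held 24441877 to 45244430 counts and footprint libraries 1460751 to 5168537, the shallowest being replicate 1 of H2O2 at 2 h. All 8 fibroblast markers had a mean above 1 TPM (transcripts scaled to a fixed total per library), with a summed level of 4147 to 11276 TPM per library. The 5 epithelial markers summed to 8.11 to 23.8 TPM (Krt18 and Cldn4 above 1), the 4 endothelial markers to 0.42 to 3.37 TPM (Kdr above 1) and the 5 macrophage markers to 9.73 to 104 TPM (Cd68, Csf1r and Cd14 above 1, Adgre1 at 0 in every library). In bulk samples, fewer cells of a type and less RNA per cell cannot be told apart.

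TPM divides by transcript length, so levels of different genes are set side by side on that scale. In the control of the H2O2 and KCl experiment, RNA levels (mean ± SD, n = 2) ran from 177 ± 15.5 TPM for Slc3a2 and 113 ± 5.30 for Slc7a5, through 70.3 ± 2.23 for Slc1a5, 50.6 ± 0.0636 for Slc6a9, 42.3 ± 0.148 for Slc7a1 and 33.9 ± 1.07 for Slc38a1, to 21.9 ± 1.51 for Slc38a4, 21.1 ± 1.65 for Slc1a4 and 4.04 ± 0.276 for Slc7a3. Only Slc38a4 and Slc1a4 overlapped their neighbour in this order. Among the 14597 genes detected there, Slc3a2 stood at percentile 93.5 and Slc7a3 at percentile 32.3. Slc3a2 was the highest of the 9 in all 8 RNA groups, whereas Slc7a3, the lowest elsewhere, stood above Slc38a4 at 7 h of H2O2. The heat control was higher than the other control for 9 of 9 genes, by a ratio of TPM from 1.28 for Slc1a5 to 3.41 for Slc7a3; the median ratio of 12440 genes was 1.10 and 66.6% of them were above 1. The experiments are therefore set side by side only as changes against their own control.

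**Figure D1:**
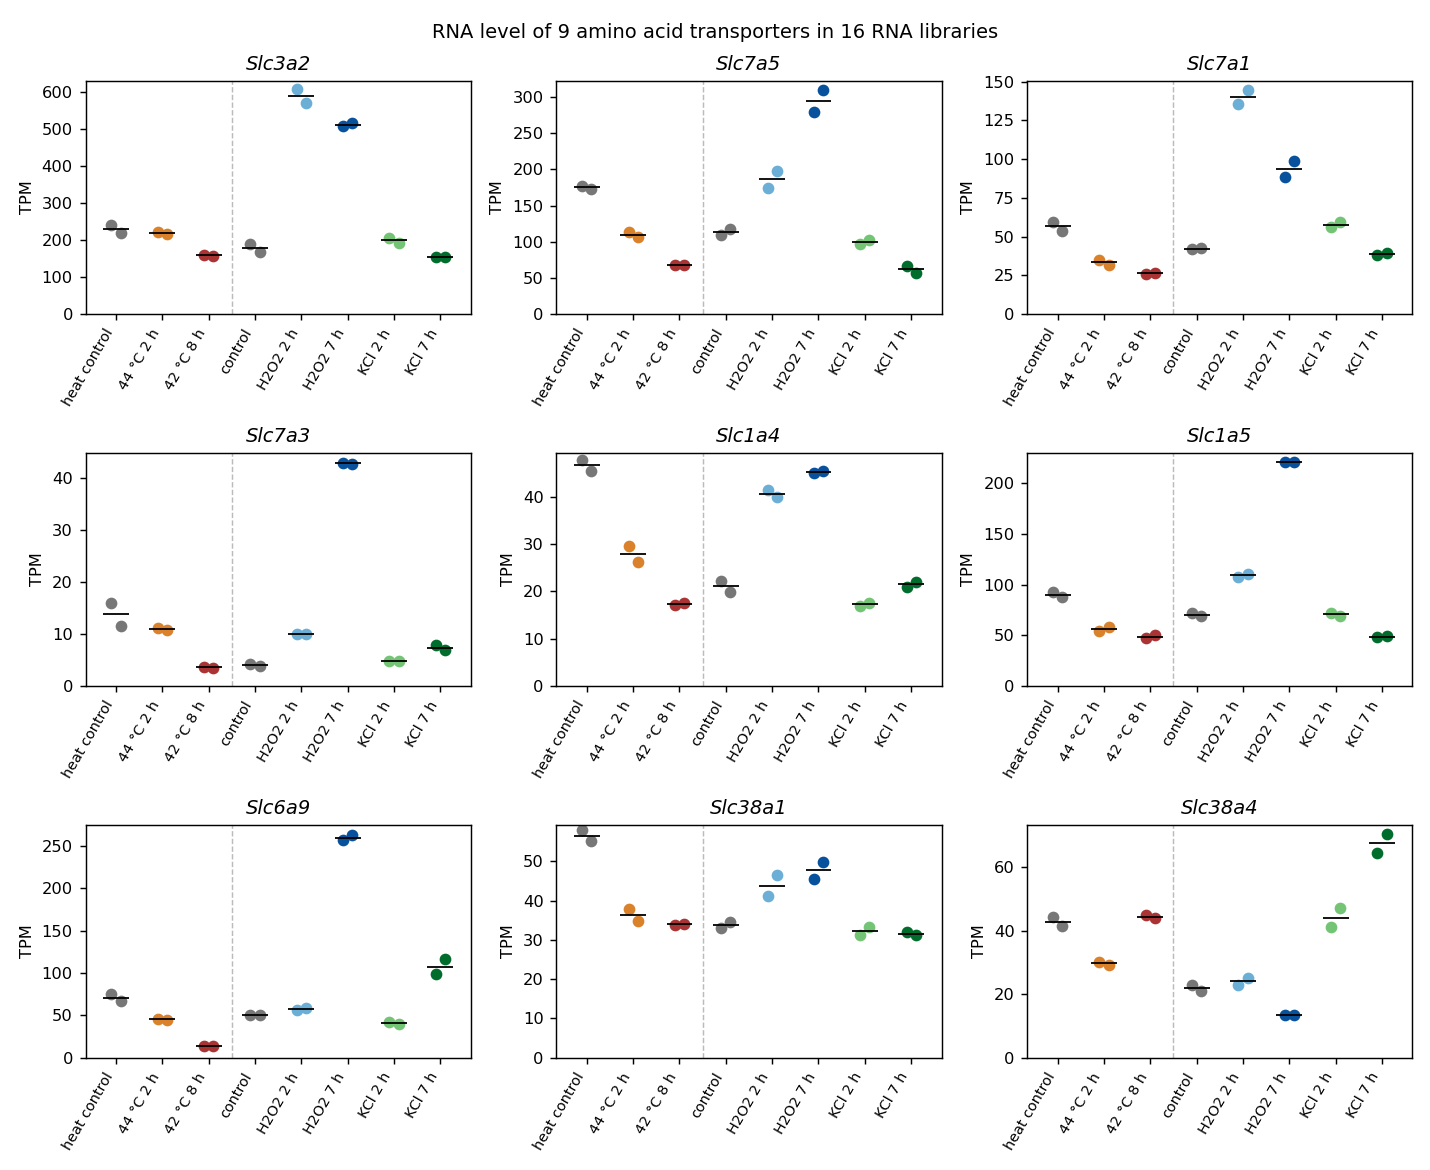
RNA level of each of the 9 transporters (y axis, TPM, linear from 0) in the 16 RNA libraries; each point is 1 library, each bar the mean of 2, and the dashed line separates the heat experiment from the H2O2 and KCl experiment. Slc7a3 and Slc6a9 are highest at 7 h of H2O2, and Slc38a4 is highest at 7 h of KCl.

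By RefSeq on GRCm38.p6, the assembly also called mm10, Slc3a2 lies at chr19:8706882-8723369, Slc7a5 at chr8:121881146-121907686, Slc7a1 at chr5:148327410-148399904, Slc7a3 at chrX:101079146-101090452, Slc1a4 at chr11:20302180-20332713, Slc1a5 at chr7:16781334-16798274 and Slc6a9 at chr4:117835258-117869305. Slc38a1 at chr15:96571418-96643438 and Slc38a4 at chr15:96994816-97055956 lie on the same chromosome with Slc38a2, at chr15:96687392-96699728, between them. RefSeq start-site windows, from 250 bases before to 50 after the start, were listed for 5 of the 9 genes (Slc3a2, Slc7a1, Slc1a4, Slc6a9, Slc38a4), and a pair of them is shown because they hold a match to the elements bound by ATF4 or NFAT5, the factors whose known targets were followed as lists. The C/EBP-ATF element bound by ATF4 dimers, searched as TGATGNAA on both strands, was in 3.97% of all 32851 windows and, among the listed transporters, in the one of Slc1a4, where its reverse complement spans the start (-4 to 3, counted with the first transcribed base as 0). The 30 bases around it, chr11:20332699-20332728 on the minus strand, read as follows, with the element in capitals.
Slc1a4 start site: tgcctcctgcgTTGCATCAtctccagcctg
The tonicity element to which NFAT5 binds, searched by name in a strict form on both strands, was in 4.96% of windows and, among the listed transporters, in 1 window of Slc38a4, upstream of the most distal of its 3 listed starts. A looser form of the element, tried first, was in 23.0% of all windows and in 2 of the 10 windows listed for these genes. By gene, it was in 25.5% of all genes and in 2 of the 5 listed transporters, Slc38a4 and Slc7a1. The strict form was chosen after those matches were seen. The 250 bases before that start, chr15:97055957-97056206 on the minus strand, follow, with the matches at -121 to -111 and at -11 to -1 in capitals; a match on the other strand, at -10 to 0, overlaps the latter.
Slc38a4 upstream bases: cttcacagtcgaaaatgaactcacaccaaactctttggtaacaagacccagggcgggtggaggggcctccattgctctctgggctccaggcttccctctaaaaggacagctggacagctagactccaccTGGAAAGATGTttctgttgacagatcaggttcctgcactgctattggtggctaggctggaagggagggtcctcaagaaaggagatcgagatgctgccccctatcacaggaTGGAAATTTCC
The C/EBP-ATF element and the strict tonicity element were each in 1 of the 10 windows listed for these genes. A match describes letters in a window and shows no binding. The part of either element in the changes below was not tested.

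RNA of these carriers was lower after heat. The heat groups, 44 °C for 2 h and 42 °C for 8 h, differ in both temperature and time. The part of either cannot be told apart, and they are named below by temperature alone. At 44 °C for 2 h all 9 genes fell against the heat control, and at 42 °C for 8 h 8 of 9 fell and Slc38a4 rose slightly, a call that did not hold on log2(TPM + 1), by edgeR's quasi-likelihood test with Benjamini-Hochberg adjustment over all 12747 genes tested (adjusted p under 0.05). The same rule called 71% of all genes at 44 °C (35.7% lower) and 63.6% at 42 °C (31.9% lower). The median log2 change of the 9 was -0.69 at 44 °C and -0.92 at 42 °C, beside 0.00 and -0.01 over all genes. In TPM the groups did not overlap the control for 8 of 9 genes at 44 °C (all except Slc3a2) and 8 of 9 at 42 °C (all except Slc38a4), where 84.3% and 83.7% of all genes tested did not overlap. Values of these tests are log2 fold changes ± SE from counts.

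Slc6a9, the glycine transporter, fell most at 42 °C. Its RNA level was 74.7 and 66.6 TPM in the control, 45.5 and 44.8 at 44 °C, then 13.2 and 14.0 at 42 °C. Both heat groups lay below the control and the 42 °C group lowest, with a log2 change of -0.72 ± 0.05 (adjusted p 3.45e-08) at 44 °C and -2.19 ± 0.06 (adjusted p 2.15e-12), or 4.58-fold lower, at 42 °C. Slc7a3, the cationic carrier with the lowest level, stood at 15.9 and 11.5 TPM in the control, 11.2 and 10.8 at 44 °C, then 3.59 and 3.45 at 42 °C. The 2 controls were far apart for this gene, and its change of -0.39 ± 0.11 (adjusted p 0.0051) at 44 °C was -0.17 (adjusted p 0.164) without replicate 1 of the control; at 42 °C it fell by 1.74 ± 0.13 (adjusted p 5.78e-08). Slc7a1, the other cationic carrier, gave 59.7 and 53.5 TPM in the control, 35.1 and 31.8 at 44 °C, then 25.8 and 26.8 at 42 °C. Its log2 change was -0.83 ± 0.05 at 44 °C and -0.92 ± 0.05 at 42 °C. Here both heat treatments lay below the control and the difference between them, -0.09 ± 0.06 (adjusted p 0.139), did not pass the test. It did on log2(TPM + 1) (-0.33, adjusted p 0.00108) and without 44 °C replicate 2 (-0.14, adjusted p 0.0438).

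Both the leucine exchanger Slc7a5 and its heavy chain Slc3a2 were lower after heat. Slc7a5 gave 177 and 173 TPM in the control, 113 and 106 at 44 °C, then 67.2 and 67.2 at 42 °C. Slc7a5 changed by -0.74 ± 0.04 (adjusted p 1.18e-09) and -1.20 ± 0.04 (adjusted p 1.87e-11). Slc3a2 gave 241 and 219 TPM in the control, 222 and 218 at 44 °C, then 161 and 156 at 42 °C. Slc3a2 changed by -0.12 ± 0.05 (adjusted p 0.0387) and -0.30 ± 0.05 (adjusted p 7.6e-05). The 44 °C call of Slc3a2 was lost with DESeq2 (adjusted p 0.0623), with RLE size factors, on log2(TPM + 1), with only the groups compared and without either 44 °C replicate or replicate 1 of the control (-0.05, adjusted p 0.454). The difference in change between the pair was not tested. Among the small neutral carriers, Slc1a4 had 47.7 and 45.5 TPM in the control, 29.6 and 26.2 at 44 °C, then 17.1 and 17.5 at 42 °C. Slc1a4 changed by -0.81 ± 0.05 and -1.24 ± 0.06. Slc1a5, the glutamine carrier, had 92.6 and 87.7 TPM in the control, 53.7 and 58.0 at 44 °C, then 46.8 and 50.4 at 42 °C. Slc1a5 changed by -0.69 ± 0.05 and -0.70 ± 0.05. Both lay below the control in every heat library. Between the heat groups Slc1a5 was not told apart (-0.02 ± 0.05, adjusted p 0.769), though lower at 42 °C on log2(TPM + 1) (-0.20, adjusted p 0.00838). Slc1a4 was lower at 42 °C than at 44 °C (-0.43 ± 0.06, adjusted p 9.67e-06).

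The Slc38 pair went apart at 42 °C. Slc38a1 gave 58.0 and 55.1 TPM in the control, 37.9 and 34.9 at 44 °C, then 33.8 and 34.1 at 42 °C. Slc38a1 changed by -0.68 ± 0.04 and -0.54 ± 0.04. Slc38a4 gave 44.4 and 41.4 TPM in the control, 30.3 and 29.3 at 44 °C, then 44.96 and 43.9 at 42 °C. It was thus low at 44 °C (-0.59 ± 0.05, adjusted p 9.05e-08) and at or slightly above the control at 42 °C (0.24 ± 0.05, adjusted p 0.000539). On log2(TPM + 1), with a pseudocount of 1, the median of all genes at 42 °C was -0.16 and the change of Slc38a4 was 0.05 (adjusted p 0.414) by limma. Between the heat groups, 7 of 9 genes differed (75.1% of all genes did): Slc6a9 (-1.48), Slc7a3 (-1.34), Slc7a5 (-0.45), Slc1a4 (-0.43) and Slc3a2 (-0.18) were lower at 42 °C and Slc38a4 (0.83) and Slc38a1 (0.14) higher. That of Slc38a1 turned to -0.10 (adjusted p 0.132) on log2(TPM + 1), where the median of all genes was -0.20, and missed the threshold without 42 °C replicate 1 (adjusted p 0.0538) or 44 °C replicate 2 (adjusted p 0.0713). On that scale the differences of Slc7a5, Slc1a4 and Slc3a2 were larger, at -0.70, -0.65 and -0.47, and the change of Slc3a2 at 42 °C against the control was -0.53.

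H2O2 raised the RNA of most of the set. At 2 h 8 of 9 genes rose, all except Slc38a4, and at 7 h 8 of 9 rose and Slc38a4 fell, over 13256 genes tested by edgeR. The rule called 53.9% of all genes at 2 h (27.3% higher) and 70.5% at 7 h (39.4% higher). The median log2 change of the 9 was 0.71 at 2 h and 1.45 at 7 h, beside 0.00 and 0.08 over all genes. In TPM the H2O2 libraries did not overlap the control for 9 of 9 genes at either time, beside 77.1% of all genes at 2 h and 85.6% at 7 h. At 7 h of H2O2 the fibroblast markers summed to 4147 to 4159 TPM, against 9167 to 9240 in the control, and the macrophage markers to 101 to 104 TPM, against 18.3 to 20.6; the part of either in these results was not tested.

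Slc3a2 and Slc7a1 were up early. The heavy chain Slc3a2 went from 188 and 166 TPM in the control to 608 and 571 at 2 h, then 509.6 and 516 at 7 h. Its log2 change was 1.72 ± 0.06 (adjusted p 4.52e-11) at 2 h and 1.63 ± 0.06 (adjusted p 1.99e-11) at 7 h. Its level at 7 h was not told apart from that at 2 h (-0.09 ± 0.06, adjusted p 0.176), but was lower on log2(TPM + 1) (-0.20, adjusted p 0.0175). The arginine and lysine carrier Slc7a1 went from 42.2 and 42.4 TPM in the control to 136 and 145 at 2 h, then 88.7 and 98.7 at 7 h. Slc7a1 changed by 1.72 ± 0.07 (adjusted p 6.44e-11) at 2 h and 1.22 ± 0.06 (adjusted p 5.83e-10) at 7 h. It was thus high at 2 h and came down by 7 h (-0.50 ± 0.06, adjusted p 6.63e-06 between the times) while staying above the control.

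Slc7a3, Slc6a9, Slc7a5 and Slc1a5 were higher at 7 h than at 2 h. Slc7a3 had 4.23 and 3.84 TPM in the control, 10 and 10.1 at 2 h, then 42.8 and 42.7 at 7 h. Slc7a3 changed by 1.26 ± 0.09 (adjusted p 6.79e-08) at 2 h and 3.42 ± 0.08 (adjusted p 2.9e-13) at 7 h, or 10.7-fold at 7 h. Slc6a9 had 50.5 and 50.6 TPM in the control, 56.3 and 59.0 at 2 h, then 257 and 263 at 7 h. The 2 h libraries stood just above the control and the 7 h libraries 5.44-fold above it (2.44 ± 0.07, adjusted p 1.4e-12). The 2 h change of Slc6a9, 0.18 ± 0.07 (adjusted p 0.0411), missed the threshold on log2(TPM + 1) and without any 1 of its 4 libraries (adjusted p 0.123 to 0.194). Slc7a5, the leucine exchanger, climbed from 109.7 and 117 TPM in the control to 175 and 197 at 2 h, then 279 and 309 at 7 h (0.71 ± 0.09 and 1.45 ± 0.09, adjusted p 2.06e-09). Slc1a5, the glutamine carrier, climbed from 71.9 and 68.7 TPM in the control to 108 and 111 at 2 h, then 222 and 221 at 7 h (0.67 ± 0.06 and 1.73 ± 0.06, adjusted p 5.38e-12). For both, the 3 groups stood apart in the same order of control, 2 h and 7 h.

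The small neutral carrier Slc1a4 went from 22.2 and 19.9 TPM to 41.3 and 40.0 at 2 h, then 44.9 and 45.4 at 7 h. It changed by 0.95 ± 0.07 at 2 h and 1.18 ± 0.07 (adjusted p 1.18e-09) at 7 h, so most of its change was present at 2 h. Slc38a1 moved least among the genes that rose at 7 h, from 33.1 and 34.6 TPM in the control to 41.1 and 46.6 at 2 h, then 45.5 and 49.9 at 7 h (0.36 ± 0.07, adjusted p 0.000603, and 0.57 ± 0.07, adjusted p 4.55e-06). Slc38a4 had 23.0 and 20.9 TPM in the control, 23.0 and 25.2 at 2 h, then 13.4 and 13.4 at 7 h. It did not pass the test at 2 h (0.16 ± 0.08, adjusted p 0.0939) and fell by 0.76 ± 0.08 (adjusted p 1.34e-06) at 7 h. Between 2 h and 7 h of H2O2, 8 of 9 genes differed, 6 higher and 2 lower at 7 h, where 73.4% of all genes differed. The small steps of Slc1a4 (0.23) and Slc38a1 (0.21) missed the threshold on log2(TPM + 1), and that of Slc38a1 also without replicate 1 of H2O2 at 2 h (0.10, adjusted p 0.261) or replicate 2 at 7 h (0.15, adjusted p 0.138).

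KCl split the set. At 2 h 4 of 9 genes rose (Slc38a4, Slc7a1, Slc7a3, Slc3a2) and 2 fell (Slc1a4, Slc6a9), and at 7 h 3 rose (Slc38a4, Slc6a9, Slc7a3) and 3 fell (Slc7a5, Slc1a5, Slc3a2), by edgeR. The same rule called 54.2% of all genes at 2 h and 68.8% at 7 h, and 6 of 9 genes of the set were called at each time, a share not far from these. The median change of the 9 was 0.10 at 2 h and 0.02 at 7 h, beside 0.00 and 0.04 over all genes. In TPM the KCl libraries did not overlap the control for 7 of 9 genes at 2 h (75.4% of all genes) and for 8 of 9 at 7 h (83.2%), shares near those of all genes.

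Slc38a4, a sodium-coupled neutral carrier, moved furthest. It rose from 23.0 and 20.9 TPM in the control to 41.1 and 47.2 at 2 h, then 64.6 and 70.6 at 7 h. Its log2 change was 1.14 ± 0.08 (adjusted p 2.34e-08) at 2 h and 1.66 ± 0.08 (adjusted p 4.87e-10) at 7 h, or 3.16-fold at 7 h. The 3 groups did not overlap, and the step from 2 h to 7 h was 0.52 ± 0.07 (adjusted p 2.65e-05). Its relative Slc38a1 passed the test at neither time, with 31.1 and 33.3 TPM at 2 h, then 31.9 and 31.3 at 7 h (0.01 ± 0.07, adjusted p 0.881, and 0.02 ± 0.07, adjusted p 0.863). The neighbour Slc38a2, which is not one of the 9, went from 256 and 258 TPM to 1362 and 1594 at 2 h, then 894 and 971 at 7 h (2.61 ± 0.08 and 1.96 ± 0.08), its 2 h libraries lying above its 7 h libraries, the reverse of Slc38a4.

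Slc6a9 turned between the KCl times. It stood at 42.0 and 40.0 TPM at 2 h, below the control (-0.20 ± 0.07, adjusted p 0.029), and at 98.3 and 117 TPM at 7 h, 2.28-fold above it (1.19 ± 0.07, adjusted p 4.61e-09). The 2 h call was lost without either control replicate or KCl replicate 2 (adjusted p 0.0819 to 0.144); the step from 2 h to 7 h was 1.39 ± 0.07 (adjusted p 1.15e-09). Slc7a3 rose at both times, with 4.85 and 4.83 TPM at 2 h, then 7.85 and 6.84 at 7 h (0.35 ± 0.11, adjusted p 0.0122, and 0.89 ± 0.10, adjusted p 2.06e-06). The early call was lost on log2(TPM + 1) (0.22, adjusted p 0.0574) and without control replicate 2 or KCl replicate 2 (adjusted p 0.0731 and 0.0697). Slc7a1 rose at 2 h, to 56.2 and 59.4 TPM (0.54 ± 0.06, adjusted p 8.26e-06) against 38.3 and 39.7 at 7 h (-0.02 ± 0.07, adjusted p 0.849), and the difference between the times was -0.55 ± 0.07 (adjusted p 3.57e-06).

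The leucine and glutamine exchangers were lower at 7 h of KCl. Slc7a5 had 96.2 and 103 TPM at 2 h (-0.10 ± 0.09, adjusted p 0.368) and 66.6 and 56.8 at 7 h, where it fell by 0.77 ± 0.09 (adjusted p 2.44e-06). Slc1a5 had 72.2 and 68.9 TPM at 2 h (0.10 ± 0.06, adjusted p 0.164) and 47.9 and 48.9 at 7 h, where it fell by 0.36 ± 0.06 (adjusted p 0.000102). At 2 h Slc1a5 overlapped the control and Slc7a5 lay just below it, and at 7 h both stood below it. Slc3a2 had 207 and 193 TPM at 2 h, then 154 and 154 at 7 h (0.29 ± 0.06, adjusted p 0.00127, and -0.16 ± 0.06, adjusted p 0.0378). Slc1a4 had 16.8 and 17.6 TPM at 2 h, then 20.9 and 22 at 7 h (-0.20 ± 0.07, adjusted p 0.0246, and 0.12 ± 0.07, adjusted p 0.129). Of these small changes, that of Slc3a2 at 2 h was 0.17 (adjusted p 0.0439) on log2(TPM + 1). That of Slc3a2 at 7 h missed the threshold without control replicate 1 (-0.11, adjusted p 0.219) or either KCl replicate. That of Slc1a4 at 2 h missed it with only the groups compared (adjusted p 0.0697) and without control replicate 1 (-0.11, adjusted p 0.26) or KCl replicate 1. At 7 h Slc1a4 passed it without control replicate 1 (0.21, adjusted p 0.0296). Between 2 h and 7 h of KCl 8 of 9 genes differed, 4 in each direction and all except Slc38a1, beside 68.8% of all genes.

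**Figure D2:**
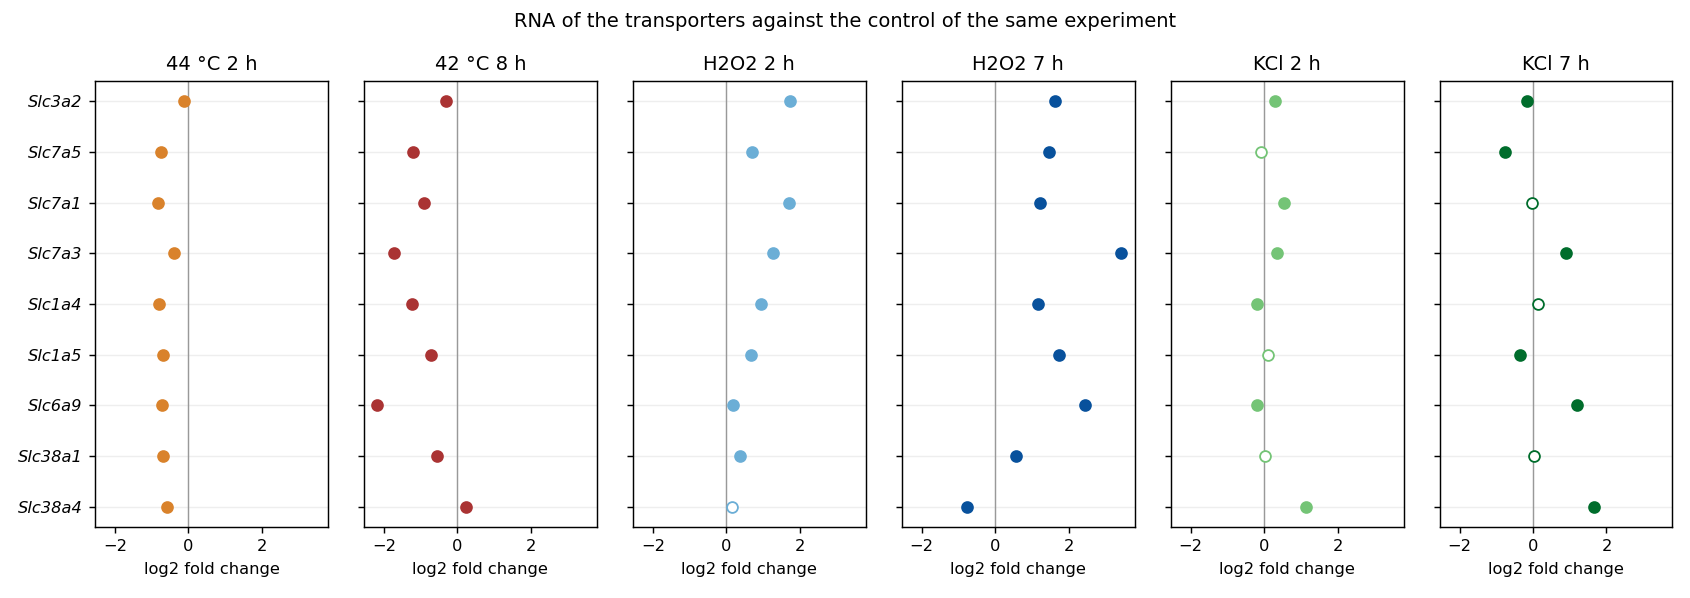
RNA change of the 9 transporters against the control of the same experiment (x axis, log2 fold change ± SE from edgeR; many error bars are shorter than the symbol); filled points passed adjusted p under 0.05 and open points did not. All 9 lie below 0 at 44 °C, 8 of 9 are filled and above 0 at 2 h of H2O2, and the KCl panels hold points on both sides of 0.

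Set directly against each other, the agents differed for every gene of the set. KCl libraries were lower than H2O2 libraries for 8 of 9 genes and higher for Slc38a4 at 2 h (51.3% of all genes differed, 27% lower with KCl) and again at 7 h (78.4%, 41% lower), by edgeR. In TPM the groups did not overlap for 9 of 9 genes at either time, beside 70.9% of all genes at 2 h and 88.6% at 7 h. At 2 h the log2 difference of KCl from H2O2 ran from -1.43 ± 0.06 for Slc3a2 to -0.35 ± 0.07 (adjusted p 0.000959) for Slc38a1 among the 8 lower genes, and was 0.98 ± 0.08 (adjusted p 1.54e-07) for Slc38a4. At 7 h it ran from -2.53 ± 0.08 for Slc7a3 to -0.56 ± 0.07 (adjusted p 4.77e-06) for Slc38a1, and was 2.42 ± 0.08 (adjusted p 3.54e-12) for Slc38a4, whose mean levels were 67.6 TPM with KCl and 13.4 TPM with H2O2. The doses of the agents are not given, so these are differences between the treatments as applied.

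Footprints gave fewer calls than RNA, with wider errors. With H2O2, 3 of 9 genes rose at 2 h (Slc3a2, Slc1a4, Slc1a5) and 6 of 9 at 7 h (those 3, Slc7a5, Slc7a3 and Slc6a9), and none fell, over 10545 genes tested by edgeR. The rule called 1.91% of all genes at 2 h (1.14% higher) and 27.7% at 7 h (17.2% higher). With KCl, 2 of 9 were called at 2 h (Slc38a4 higher, Slc7a5 lower; 6.86% of all genes) and 5 of 9 at 7 h (Slc38a4, Slc6a9 and Slc1a4 higher, Slc7a5 and Slc1a5 lower; 20.4%). In TPM, H2O2 libraries did not overlap the control for 7 of 9 genes at 2 h (44.5% of all genes) and 7 of 9 at 7 h (65% of all genes). KCl libraries did not overlap it for 4 of 9 at 2 h (48.3%) and 6 of 9 at 7 h (62.1%). With only the groups compared in the fit, no gene of the set was called at 2 h of H2O2, while 1 was called at 2 h of KCl.

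Slc3a2 footprints were 328 and 347 TPM in the control, 617 and 820.3 at 2 h, then 648 and 709 at 7 h of H2O2. Slc3a2 changed by 1.25 ± 0.19 (adjusted p 0.00586) and 0.99 ± 0.19 (adjusted p 0.00151). With KCl its footprints were 271 and 289 at 2 h, then 259.6 and 246 at 7 h, below every control library without passing the test (-0.17 ± 0.18 and -0.33 ± 0.18). The heavy chain was thus called with H2O2 and not with KCl, and KCl and H2O2 differed by -1.42 ± 0.19 (adjusted p 0.00122) at 2 h and -1.32 ± 0.19 (adjusted p 0.00013) at 7 h. Its partner Slc7a5 had 213 and 224 TPM of footprints in the control, 242 and 273 at 2 h, then 349.5 and 378 at 7 h of H2O2. With KCl it had 108 and 117 at 2 h, then 137 and 136 at 7 h. It rose at 7 h of H2O2 (0.62 ± 0.18, adjusted p 0.0187) and fell at both KCl times (-0.90 ± 0.18, adjusted p 0.00974, and -0.65 ± 0.18, adjusted p 0.0216). Leaving out any 1 of the 4 libraries ended both 7 h calls (adjusted p 0.0525 to 0.183 with H2O2 and 0.0526 to 0.133 with KCl). The 2 h KCl call ended without control replicate 2 or either KCl replicate (adjusted p 0.0503 to 0.112).

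Footprints of the cationic carriers were less certain. Slc7a1 had 188 and 163 TPM in the control, 216 and 329.9 at 2 h, then 242 and 274 at 7 h of H2O2, all above the control, and passed the test at neither time (0.71 ± 0.22, adjusted p 0.128, and 0.45 ± 0.22, adjusted p 0.155). With KCl it had 183 and 153 TPM at 2 h, then 201 and 157 at 7 h, overlapping the control (-0.01 ± 0.22 and 0.06 ± 0.22). Slc7a3 rested on few reads, 45 and 28 counts in the control, 13 and 161 at 2 h, then 268 and 199 at 7 h of H2O2. With KCl there were 40 and 9 at 2 h, then 44 and 23 at 7 h. In TPM this was 7.58 and 4.45, 4.38 and 17.4, 54.6 and 33.1, 8.59 and 2.29 and 9.55 and 4.66 in the same order. Its rise at 7 h of H2O2, 2.83 ± 0.55 (adjusted p 0.00199), stood clear of the control in both replicates, whereas the 2 h replicates, the lower of them the shallowest library, lay on either side of it (1.24 ± 0.57, adjusted p 0.289).

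Slc1a4 and Slc1a5 rose in footprints with H2O2 at both times. Slc1a4 had 25.9 and 22.9 TPM in the control, 59.2 and 63.8 at 2 h, then 68.8 and 72.8 at 7 h (1.41 ± 0.20, adjusted p 0.00381, and 1.43 ± 0.20, adjusted p 0.000153). Slc1a5 had 67.2 and 83.6 TPM in the control, 127 and 116 at 2 h, then 241 and 218 at 7 h (0.99 ± 0.21, adjusted p 0.0277, and 1.62 ± 0.21, adjusted p 9.09e-05). At 2 h, the call of Slc1a5 was lost on log2(TPM + 1) (adjusted p 0.14) and without either control replicate or H2O2 replicate 1 (adjusted p 0.0812 to 0.217). That of Slc1a4 was lost without control replicate 2 (adjusted p 0.0507) and that of Slc3a2 without control replicate 1 (adjusted p 0.0565). At 7 h of KCl the pair went apart: Slc1a4, at 41.1 and 31.6 TPM, was higher than the control (0.60 ± 0.20, adjusted p 0.0473) and Slc1a5, at 45.8 and 32.8 TPM, lower (-0.79 ± 0.21, adjusted p 0.0195), with neither overlapping it. At 2 h of KCl Slc1a4 had 29.7 and 29.4 TPM and Slc1a5 80.0 and 86.4 TPM, and neither was called. The 7 h call of Slc1a4 was lost without any 1 of its 4 libraries (adjusted p 0.0529 to 0.281), with DESeq2, without a filter, on log2(TPM + 1) and with only the groups compared. That of Slc1a5 was lost without control replicate 2 or KCl replicate 2 (adjusted p 0.15 and 0.169).

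Slc6a9 footprints rose at 7 h under both agents. They stood at 33.5 and 23.4 TPM in the control and 27.2 and 47.1 at 2 h of H2O2, which overlapped, and reached 191 and 188 at 7 h (2.62 ± 0.31, adjusted p 4.48e-05, 6.16-fold). With KCl they were 28.8 and 16.6 at 2 h, also overlapping the control, and 84.0 and 52.7 at 7 h (1.30 ± 0.30, adjusted p 0.00956). The KCl call was lost without control replicate 2 (1.12, adjusted p 0.0738) or KCl replicate 1 (0.92, adjusted p 0.108). Slc38a4 was the gene of the set with the highest footprint level at 7 h of KCl. It had 100.2 and 89.4 TPM in the control, 201 and 124 at 2 h, then 347 and 265 at 7 h of KCl. Slc38a4 changed by 0.82 ± 0.23 (adjusted p 0.0484) and 1.72 ± 0.23 (adjusted p 0.000403), or 3.31-fold at 7 h. The 2 h call was lost on log2(TPM + 1), with only the groups compared, without either control replicate and without KCl replicate 1 (0.50, adjusted p 0.388). With H2O2, Slc38a4 footprints were 107 and 133 at 2 h, then 93.1 and 70.3 at 7 h, neither called against the control (0.42 ± 0.23 and -0.33 ± 0.23, adjusted p 0.311). Slc38a1 footprints were 153 and 157 TPM in the control, 187 and 191 at 2 h, then 192 and 153 at 7 h of H2O2. With KCl their level was 154 and 124 at 2 h, then 203 and 121 at 7 h. They passed the test in none of the 4 comparisons with the control.

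**Figure D3:**
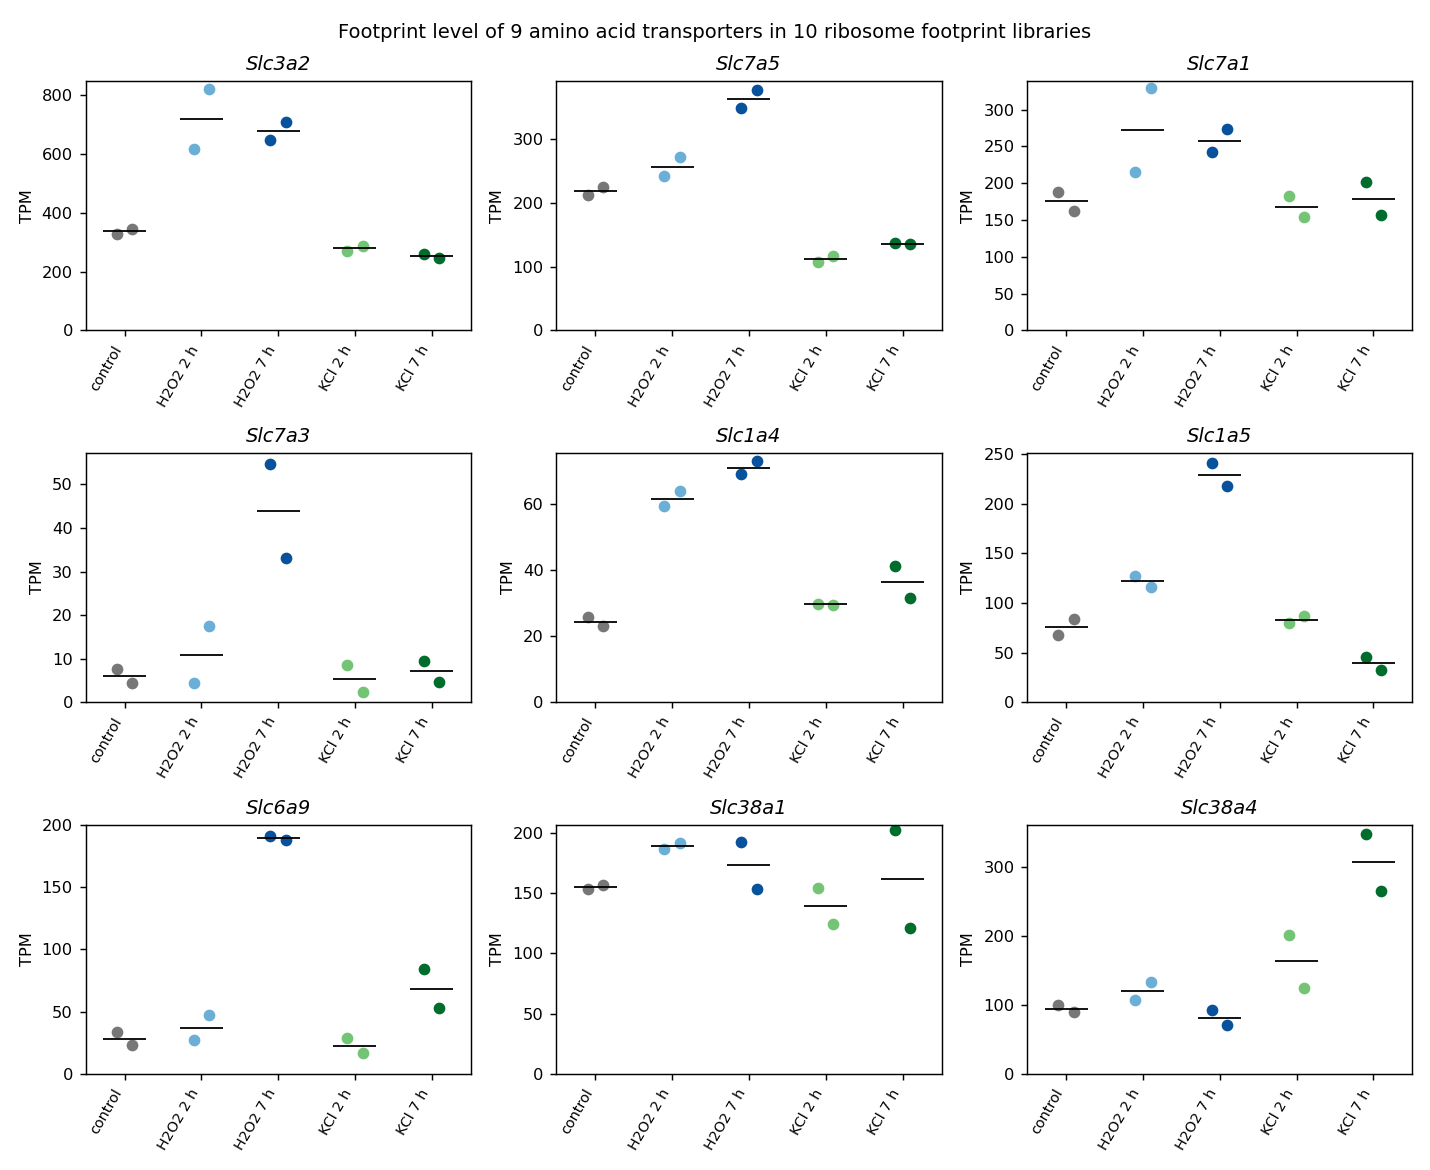
Footprint level of each of the 9 transporters (y axis, TPM, linear from 0) in the 10 footprint libraries; each point is 1 library and each bar the mean of 2. Slc6a9 at 7 h of H2O2 and Slc38a4 at 7 h of KCl stand clear of the control, and the replicates of Slc7a3 are far apart.

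Between times and agents the footprint calls were fewer than those of RNA. From 2 h to 7 h of H2O2, Slc6a9 (2.12 ± 0.30, adjusted p 0.000224), Slc7a3 (1.59 ± 0.51, adjusted p 0.0338) and Slc1a5 (0.63 ± 0.20, adjusted p 0.0337) rose and Slc38a4 (-0.75 ± 0.23, adjusted p 0.0278) fell, 4 of 9 beside 29.8% of all genes. From 2 h to 7 h of KCl, Slc6a9 (1.55 ± 0.31, adjusted p 0.00472) and Slc38a4 (0.90 ± 0.23, adjusted p 0.0152) rose and Slc1a5 (-1.05 ± 0.21, adjusted p 0.00541) fell, 3 of 9 beside 20.6%. Of these 7 steps only that of Slc6a9 with H2O2 kept its call without each single library of the 2 groups compared. The value of Slc7a3 was 2.94 (adjusted p 0.0121) without H2O2 replicate 2 at 2 h and 1.09 (adjusted p 0.143) without replicate 1. The step of Slc7a5 with H2O2 passed on log2(TPM + 1) alone (0.50, adjusted p 0.0337). KCl footprints were lower than H2O2 footprints for 3 of 9 genes at 2 h (Slc3a2, Slc7a5 at -1.21 and Slc1a4 at -1.08; 5.12% of all genes). At 7 h they were lower for 6 of 9, from -2.57 for Slc7a3 to -0.82 for Slc1a4, and higher for Slc38a4, by 2.06 ± 0.24 (adjusted p 2.46e-05), where 41.2% of all genes differed. Slc7a1 and Slc38a1 were called at neither time, except Slc7a1 at 2 h without H2O2 replicate 1 (-0.99, adjusted p 0.0334). Slc1a5 at 2 h was called with DESeq2 (-0.71, adjusted p 0.0465) and without a filter (adjusted p 0.048). The difference of Slc1a4 at 2 h was lost with only the groups compared and without either KCl replicate (adjusted p 0.0653 and 0.0811). At 7 h that of Slc1a4 was lost without H2O2 replicate 2 (adjusted p 0.0579) and, with that of Slc6a9, without KCl replicate 2 (adjusted p 0.0611 and 0.0531).

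Translational efficiency, the footprint change less the RNA change in one edgeR model over both kinds of library (10480 genes), changed for few genes of the set. It was called for 1 of 9 at 2 h of H2O2 (Slc7a1; 11.4% of all genes), for 2 of 9 at 7 h of H2O2 (Slc7a5 and Slc3a2; 9.27%), for 1 of 9 at 2 h of KCl (Slc7a5; 12.8%) and for 0 of 9 at 7 h of KCl (5.57%), each time lower. At 2 h of either agent, 1 of 9 is near the share of all genes. Most called efficiency changes over all genes were also lower at 2 h of KCl. At 7 h of KCl 1 gene, Slc1a4, had an unadjusted p under 0.05, and limma's voom fit also called 0. For Slc7a1 at 2 h of H2O2 the RNA change of 1.72 stood beside a footprint change of 0.71, a difference in efficiency of -1.04 ± 0.24 (adjusted p 0.00993); with only the groups compared the adjusted p was 0.0503. At 7 h the difference of Slc7a1, -0.77 ± 0.24, had an adjusted p of 0.05 and narrowly missed the threshold. It passed by voom (adjusted p 0.0225), with RLE size factors (adjusted p 0.0487), with only the groups compared (adjusted p 0.0206) and without footprint H2O2 replicate 2 (adjusted p 0.0449). For Slc7a5 at 7 h of H2O2, RNA rose by 1.45 and footprints by 0.62, a difference of -0.83 ± 0.18 (adjusted p 0.00849). At 2 h of KCl its RNA changed by -0.10 and footprints by -0.90, a difference of -0.82 ± 0.18 (adjusted p 0.00711). The difference at 7 h of H2O2 missed the threshold without RNA control replicate 1 or RNA H2O2 replicate 2 (adjusted p 0.0522 and 0.0609). For Slc3a2 at 7 h of H2O2, RNA rose by 1.63 and footprints by 0.99 (-0.64 ± 0.18, adjusted p 0.0319), a call lost without any 1 of 6 of the 8 libraries (adjusted p 0.0822 to 0.133). At 2 h of H2O2 the efficiency of Slc3a2 was called by voom (adjusted p 0.0474), with the replicate block (adjusted p 0.0399) and without footprint H2O2 replicate 2 (-0.71, adjusted p 0.0108). The other genes of the set showed no called difference between RNA and footprint changes, which does not show that the changes were equal.

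**Figure D4:**
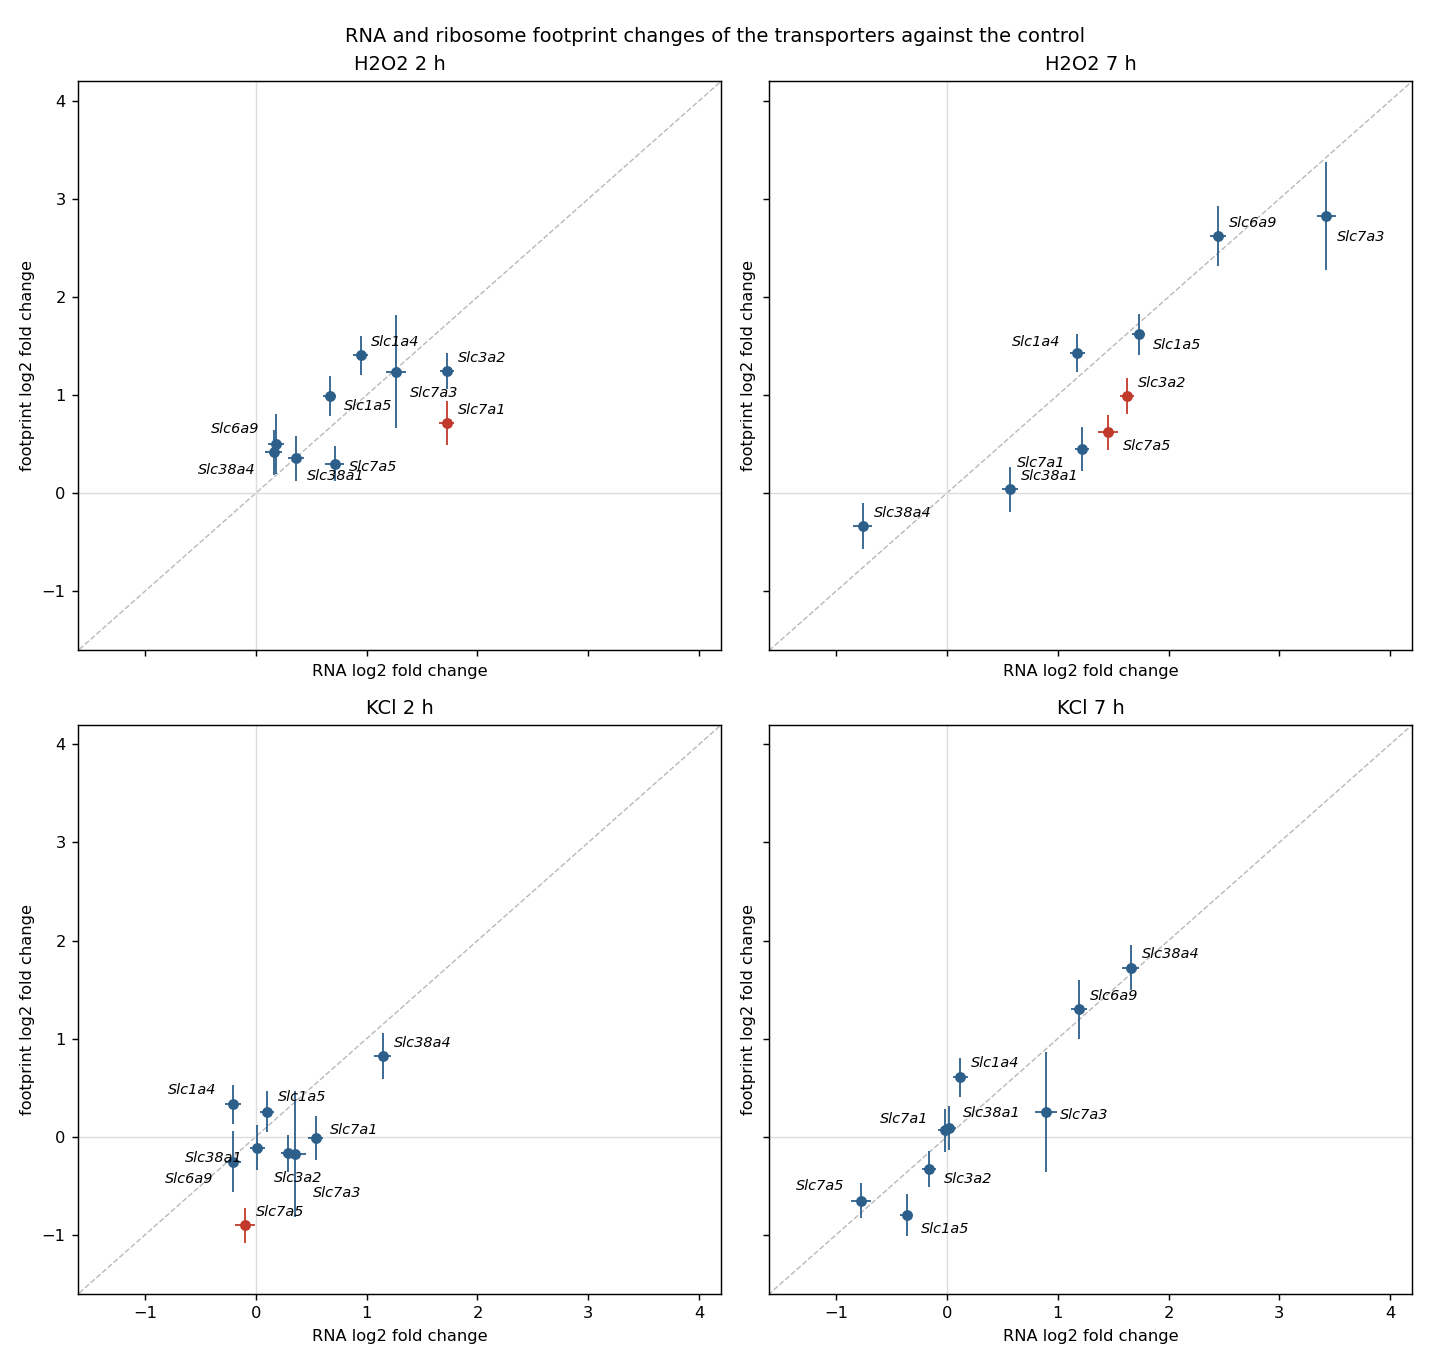
RNA change (x axis) against footprint change (y axis) of the 9 transporters in 4 comparisons with the control, as log2 fold change ± SE; the dashed line marks equal change and red points have a called difference in translational efficiency. The red points, Slc7a1 at 2 h of H2O2, Slc3a2 and Slc7a5 at 7 h of H2O2 and Slc7a5 at 2 h of KCl, all lie below the line.

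In the control, 8 of the 9 carriers had more footprints per RNA than the median gene, with Slc6a9 as the exception. The ratio of footprint TPM to RNA TPM, relative to the median of 10430 genes (mean ± SD, n = 2), was 7.26 ± 0.274 for Slc38a1, 6.86 ± 0.277 for Slc38a4 and 6.57 ± 0.342 for Slc7a1. It was between 1.72 ± 0.405 (Slc1a5) and 3.06 ± 0.135 (Slc7a5) for 5 genes and 0.889 ± 0.178 for Slc6a9. From CPM, counts scaled to library size, which do not divide by length, the values were lower for Slc38a1 (2.80 ± 0.135) and Slc7a1 (3.40 ± 0.162), 5.96 ± 0.272 for Slc38a4 and 0.989 ± 0.172 for Slc6a9, and the same 8 genes were above 1.

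Other plasma membrane and lysosomal amino acid carriers, a list of 28 of which 20 could be tested with heat and 23 with H2O2 or KCl, were followed for comparison. With heat 7 rose and 9 fell at 44 °C (median -0.21) and 2 rose and 13 fell at 42 °C (median -0.23). With H2O2 10 rose and 2 fell at 2 h (median 0.37) and 11 rose and 8 fell at 7 h (median 0.36). With KCl 9 rose and 2 fell at 2 h (median 0.31) and 10 rose and 4 fell at 7 h (median 0.53). In either direction 16 and 15 of 20 were called with heat, beside 71% and 63.6% of all genes. For H2O2 it was 12 and 19 of 23 (53.9% and 70.5% of all genes), and for KCl 11 and 14 of 23 (54.2% and 68.8%). The cystine-glutamate exchanger Slc7a11, another partner of Slc3a2, was the carrier outside the set that fell most at 44 °C (-1.89 ± 0.09, adjusted p 2.75e-10) and 42 °C (-3.48 ± 0.11, adjusted p 5.35e-12). It also rose most at 2 h of H2O2 (3.97) and stood at 4.09 at 7 h. For Slc7a11 the heat control (13.8 and 11.4 TPM) lay far above the other control (2.00 and 2.21), a ratio of 5.99 beside a median of 1.10. At 44 °C it had 3.49 and 3.64 TPM, above the other control, and at 42 °C 0.93 and 1.06 TPM, below it. The glutamate carrier Slc1a3 fell most at 7 h of H2O2 (-2.53 ± 0.10) and rose most at 7 h of KCl (3.31 ± 0.08). Slc38a3, a glutamine carrier related to Slc38a1, rose most at 7 h of H2O2 among carriers whose mean log2 CPM reached 1 (4.23 ± 0.21), and Slc38a2 at 2 h of KCl. By the same rule the glutamate carrier Slc1a3 rose most at 42 °C (0.82 ± 0.06) and Slc7a7, a partner of Slc3a2 in the exchange of cationic and neutral amino acids, at 44 °C (1.35 ± 0.18). The carriers that fell most were the lysosomal Slc36a1 at 2 h of H2O2 (-0.52 ± 0.08), Slc38a7 at 2 h of KCl (-0.35 ± 0.07) and the cationic carrier Slc7a2 at 7 h of KCl (-0.99 ± 0.14).

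**Figure D5:**
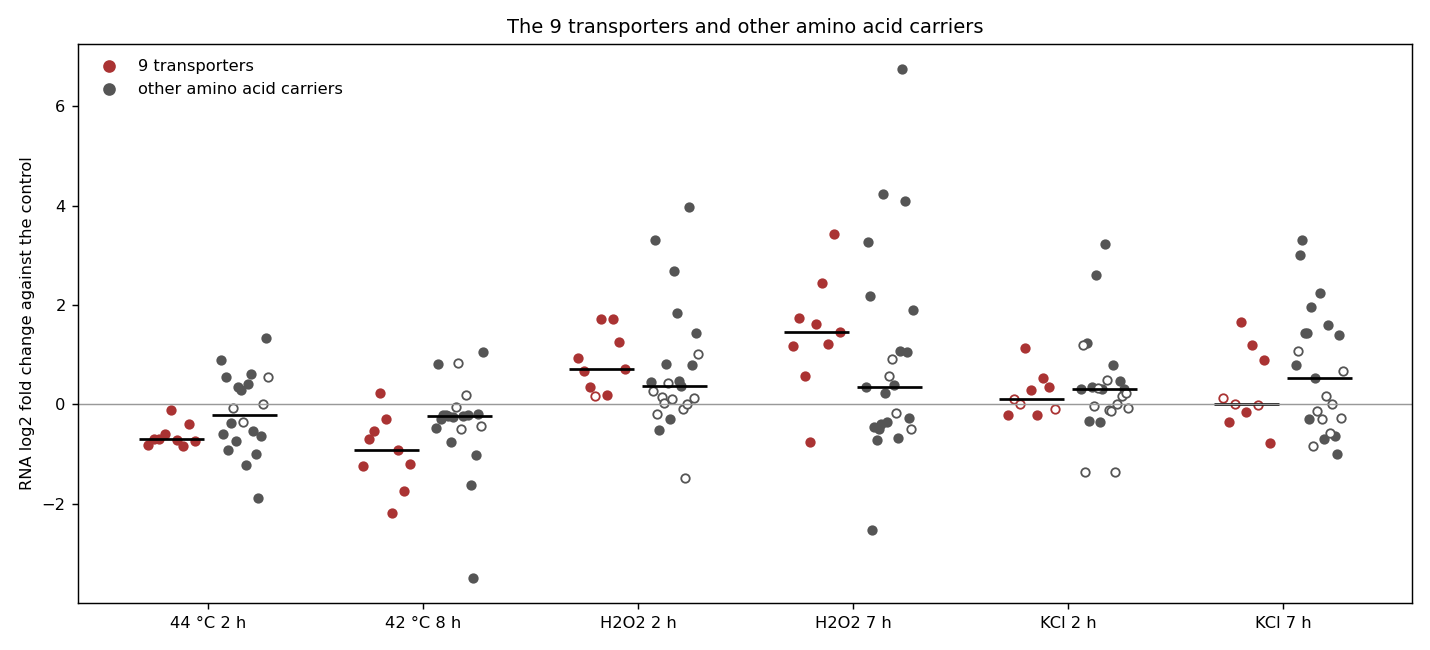
RNA change (y axis, log2 fold change) of the 9 transporters and of the other amino acid carriers tested in each of 6 comparisons with the control; filled points passed adjusted p under 0.05 and bars are medians. With H2O2 the median of the 9 is 0.71 at 2 h and 1.45 at 7 h, beside 0.37 and 0.36 for the other carriers. The 9 and the list were chosen with earlier results of these data known, so this contrast is a description alone.

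A list of 14 further genes known as ATF4 targets or partners, Atf4 included, gave 2 higher and 9 lower at 44 °C (median -0.46), 1 and 13 at 42 °C (median -1.09), 11 and 0 at 2 h of H2O2 (median 0.77) and 14 and 0 at 7 h (median 1.75). With KCl it gave 2 higher and 7 lower at 2 h (median -0.10) and 7 and 1 at 7 h (median 0.24). Asns, the asparagine synthetase, changed by -0.76, -1.49, 0.80 and 2.13 at 44 °C, 42 °C and 2 h and 7 h of H2O2. With KCl it gave -0.20 ± 0.07 (adjusted p 0.0235) at 2 h and -0.07 ± 0.07 (adjusted p 0.413) at 7 h. The 2 h call of Asns was lost with only the groups compared (adjusted p 0.0507) and without control replicate 1 (adjusted p 0.19) or KCl replicate 2 (adjusted p 0.153), and at 7 h it was lower on log2(TPM + 1) (-0.17, adjusted p 0.0318). For Chac1, which degrades glutathione, the values were -0.87 ± 0.08 at 44 °C, -1.92 ± 0.09 at 42 °C, 3.27 ± 0.09 and 2.93 ± 0.09 with H2O2, and -0.82 ± 0.11 and 1.26 ± 0.09 with KCl. The heat falls start from a higher control. The ratio of TPM, heat control over other control, was 5.13 for Chac1, 2.36 for Asns and 1.82 for Atf4, beside a median of 1.10. The gene of ATF4 itself changed by -0.75 and -0.44 with heat, 1.22 and 1.46 with H2O2, and 0.79 and 0.52 with KCl. A list of 6 genes of the NFAT5 response to high salt, Nfat5 included, gave 5 higher and 0 lower at 2 h of KCl (median 1.45) and 6 and 0 at 7 h (median 2.74), but 3 and 2 at 2 h, then 2 and 4 at 7 h of H2O2. With heat 5 of the 6 could be tested, with 4 higher and 1 lower at 44 °C (median 0.63) and again at 42 °C (median 0.57). In either direction, 71% and 63.6% of all genes were called there. Nfat5 changed by 2.01 and 1.98 with KCl. Under the alternative settings its change was 0.49 to 0.76 at 44 °C and 0.15 to 0.41 at 42 °C. For H2O2 the range was 0.56 to 0.64 at 2 h and -0.39 to -0.28 at 7 h. Of all genes, 35.7% were lower at 44 °C and 31.9% at 42 °C, and 27.3% and 39.4% were higher at 2 h and 7 h of H2O2. In either direction, 54.2% and 68.8% were called at 2 h and 7 h of KCl. The H2O2 and KCl comparisons share the control libraries.

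Genes with the RNA profile most like each transporter were listed by Pearson's r over the 16 RNA libraries, centred within each experiment, among 9228 well-expressed genes; the libraries share controls and the values describe likeness alone. Slc3a2 was closest to Ndrg1 (0.988), a stress-responsive gene, and Hmox1 (0.969), heme oxygenase, and Slc7a1 to Slc7a11 (0.943) and Irx3 (0.925). Slc7a3 was closest to Sars (0.977), the seryl-tRNA synthetase, and Tnfaip2 (0.973), and Slc6a9 to Cars (0.979), the cysteinyl-tRNA synthetase. Slc1a5 was closest to Bcat1 (0.985), a branched-chain aminotransferase, and Gars (0.981), the glycyl-tRNA synthetase. Slc7a5 was closest to Vldlr (0.973) and Anpep (0.969), then to Pycr1 (0.967), a proline synthesis enzyme. Slc1a4 was closest to Pycr1 (0.958), then to Trib3 (0.938) and Vldlr (0.937), and Slc38a1 to Aldh18a1 (0.939), another proline synthesis enzyme. Slc38a4 stood apart, closest to Stag1 (0.981) and Gli3 (0.976). Within the set the closest pairs were Slc7a5 with Slc1a5 (0.953), Slc3a2 with Slc7a1 (0.910) and Slc7a3 with Slc6a9 (0.904), and Slc38a4 had a negative r with each of the other 8 (-0.784 to -0.385).

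The series was made to follow transcription that runs past gene ends into the next gene, and its per-library calls of such downstream transcription and of read-in were examined for the pairs that hold a transporter. There were 9 such pairs, with 6 of the 9 genes (Slc3a2, Slc7a5, Slc7a1, Slc1a4, Slc1a5, Slc6a9), the transporter being upstream in 4 and downstream in 5; Slc7a3, Slc38a1 and Slc38a4 were in no pair. In the authors' deposited table, transcription past the upstream gene's end was called 19 times in 144 pair-by-library cells (13.2%, against 28.5% over all 6399 pairs), most often past Slc6a9 towards Hyi, in 5 of 16 libraries. Read-in was called 0 times for these pairs, against 1.38% of cells over all pairs, and the highest deposited read-in estimate for a pair with the transporter downstream was 0.0171, for Slc3a2 at 42 °C. Read-in concerns the downstream gene, so it was assessed for Slc3a2, Slc6a9, Slc7a1, Slc1a5 and Slc7a5 and not for Slc1a4.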

How the data were processed

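The submitters' processing notes name STAR, Bowtie and RSEM and the build mm10, with no versions; RNA libraries were made with a kit from NEB and footprints by an earlier method of the group, per the labels. The authors deposited RSEM expected counts, here all whole numbers and used without rounding, and TPM values, for RNA and footprints apart. They also deposited, per gene pair and library, calls of transcription past gene ends and a read-in estimate, a ratio; the sources used here do not give its formula. Left out were 12 columns of per-sample values that fit no label.

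Counts were tested with edgeR 4.0.16 (R 4.3.3): TMM normalization, filterByExpr, quasi-likelihood F test, Benjamini-Hochberg adjustment over all genes tested, threshold 0.05. Separate fits used the 6 heat RNA libraries (12747 genes), the 10 other RNA libraries (13256) and the 10 footprint libraries (10545); translational efficiency was the interaction of readout and treatment over 20 libraries (10480). TMM takes most genes as unchanged, while over 50% of genes were called in each RNA comparison, so changes are relative to the bulk of genes. Alternatives were DESeq2 1.42.0, RLE size factors, no filter, limma 3.58.1 on log2(TPM + 1) with a pseudocount of 1, limma voom for efficiency, only the groups compared, a replicate block and leaving out each library. The fits were checked on simulated counts.

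The members and lists were chosen with earlier results of these data known. Named were all 9 members in each comparison and, of 28 other carriers, the called gene furthest from 0 in each direction whose mean log2 CPM reached 1, along with Slc38a2, Slc7a11, Atf4, Asns, Chac1 and Nfat5; the genes most like each member came from those whose mean log2 CPM reached 3. Promoter windows and gene positions are from RefSeq on GRCm38.p6; all 9 symbols matched, and 5 had a window. Slc7a5, Slc1a5, Slc38a1 and Slc7a3 had none. No sequence was read from a genome.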

Additional observations from a re-analysis of the deposited data

Results flagged for a closer look

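Each value here is the log2 difference of 7 h from 2 h of the same agent that passed edgeR's test. The labels give the shared control no time, and no control is matched to 2 h or 7 h. A change in the effect of the agent and a change with elapsed time alone thus cannot be told apart. Some of these calls were lost under other settings, as given above. In RNA with H2O2, the difference was 2.26 for Slc6a9, 2.16 for Slc7a3, 1.06 for Slc1a5, 0.74 for Slc7a5, 0.23 for Slc1a4 and 0.21 for Slc38a1, all higher at 7 h, and -0.50 for Slc7a1 and -0.92 for Slc38a4, both lower. In RNA with KCl it was 1.39 for Slc6a9, 0.54 for Slc7a3, 0.52 for Slc38a4 and 0.33 for Slc1a4, and -0.68 for Slc7a5, -0.55 for Slc7a1, -0.46 for Slc1a5 and -0.45 for Slc3a2. In footprints with H2O2 it was 2.12 for Slc6a9, 1.59 for Slc7a3, 0.63 for Slc1a5 and -0.75 for Slc38a4, and with KCl 1.55 for Slc6a9, 0.90 for Slc38a4 and -1.05 for Slc1a5. Each group has 2 libraries, too few to look for a single library far from the others.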

How the results depend on the processing

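The RNA counts of called transporters stayed within 1.5 times their main value under DESeq2, RLE size factors, no filter, log2(TPM + 1), only the groups compared, the replicate block and leaving out each library. A lone replicate was then assumed to vary like the other groups. The footprint and efficiency counts were less stable. Footprint calls at 2 h of H2O2 numbered 0 with only the groups compared (3 in the main analysis) and 1 to 3 without single libraries. At 2 h of KCl they numbered 1 on log2(TPM + 1), 1 with only the groups compared and 0 to 1 without single libraries (2 in the main analysis). Without single libraries they numbered 1 to 3 at 7 h of KCl (5 in the main analysis), 1 to 3 between the H2O2 times (4) and 1 to 3 between the KCl times (3). Efficiency calls at 2 h of H2O2 (1) numbered 2 by voom, 0 with only the groups compared and 1 to 2 without single libraries, and at 7 h (2) 0 to 3. Replicate numbers were not treated as pairs in the main fits. Rep 1 minus rep 2 differences correlated between groups at 0.06 to 0.20 for heat RNA, -0.20 to 0.32 for the other RNA and -0.48 to 0.48 for footprints. They were above 0.1 in 2 of 3, 4 of 10 and 6 of 10 pairs of groups. In footprints every pair with H2O2 at 2 h was negative and the rest lay at 0.22 to 0.48. These values do not settle whether the numbers pair the samples. With the replicate block, efficiency calls at 2 h of H2O2 numbered 2 and the Slc1a4 footprint call at 7 h of KCl was lost (adjusted p 0.0534) and the other counts of calls stayed within 1.5 times.

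On log2(TPM + 1) the median of all genes moved by over 0.1 from the main value in 5 comparisons, to -0.16 at 42 °C, -0.20 between the heat groups, 0.11 for footprints at 7 h of H2O2, 0.19 between the H2O2 times in footprints and -0.18 between agents at 7 h in footprints. On that scale 23.6% of called genes were higher at 42 °C (49.8% in the main analysis), 28.9% between the heat groups (50.4%), 36.1% at 2 h of KCl (50.2%), 31.8% for KCl against H2O2 at 2 h (47.3%). In footprints it was 80% at 2 h of H2O2 (59.7%), 74.3% at 7 h (61.9%), 77.5% between the H2O2 times (62.7%) and 31.7% for KCl against H2O2 at 7 h (43.1%). With only the groups compared it was 92.6% at 2 h of H2O2. By voom 39.9% of called efficiency changes were higher at 7 h of H2O2 (50.7%). For 2 h of KCl the share was 18.1% (28%). The number of all genes called for footprints at 2 h of H2O2, 201, was 315 without a filter, 45 on log2(TPM + 1) and 27 with only the groups compared. At 2 h of KCl 723 became 477 and 463 under the latter pair, and for KCl against H2O2 at 2 h 540 became 350 and 145. Efficiency calls at 2 h of H2O2, 1199, became 659 by voom and 600 with only the groups compared; by voom 971 became 642 at 7 h of H2O2, 1337 became 730 at 2 h of KCl and 584 became 221 at 7 h. The cause of these changes was not tested.

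Over the settings tried on single transporters, RNA kept direction and call in 933, lost the call in 33, gained it in 5 and turned in 19; footprints did so in 628, 61, 4 and 27 and efficiency in 435, 9, 7 and 17. Signs turned mainly for genes near 0 that were not called. The called Slc38a1 difference between the heat groups turned to -0.0976 on log2(TPM + 1). On that scale uncalled values turned to -0.0706, -0.0973 and -0.0267 for Slc38a1 RNA at 2 h and 7 h of KCl and between the KCl times, -0.13 for its footprints between agents at 7 h and 0.000496 for Slc38a2 at 44 °C. Without a filter, Slc38a1 RNA turned to -0.00285, -0.00490 and -0.00205 in those 3 KCl comparisons, and Slc1a4 footprints to -0.0106 between the H2O2 times. With only the groups compared Slc38a1 RNA turned to -0.0363 at 7 h of KCl and -0.0191 between the KCl times, where DESeq2 gave -0.0118 and RLE -0.0118. Slc7a1 footprints at 2 h of KCl turned to 0.0265 with DESeq2 and 0.0265 with RLE, and voom gave -0.0566 for Slc7a3 efficiency at 2 h of H2O2. Without single libraries, uncalled RNA values ranged over -0.0221 to 0.0479 at 2 h of KCl, -0.0177 to 0.0458 at 7 h of KCl and -0.0335 to 0.0361 between KCl times for Slc38a1. They ranged over -0.0856 to 0.0526 between the heat groups for Slc1a5 and -0.14 to 0.00137 at 7 h of KCl for Asns. Uncalled footprint values ranged over -0.12 to 1.73 at 2 h of H2O2, -1.57 to 0.51 at 2 h of KCl, -0.52 to 0.81 at 7 h of KCl and -0.35 to 1.83 between KCl times for Slc7a3. Those of Slc7a1 ranged over -0.54 to 0.0847 between H2O2 times, -0.0852 to 0.11 at 2 h of KCl, -0.12 to 0.23 at 7 h of KCl and -0.12 to 0.24 between KCl times. Those of Slc38a1 ranged over -0.12 to 0.0994 at 7 h of H2O2, -0.33 to 0.42 at 7 h of KCl, -0.22 to 0.53 between KCl times and -0.36 to 0.39 between agents at 7 h. The rest ranged over -0.0242 to 0.82 at 2 h of H2O2 and -0.59 to 0.0207 at 2 h of KCl for Slc6a9 and -0.11 to 0.0857 between H2O2 times for Slc1a4. Efficiency values ranged over -1.44 to 0.42 at 2 h of H2O2 and -1.95 to 0.15 at 2 h of KCl for Slc7a3 and -0.25 to 0.59 at 2 h of H2O2, -0.40 to 0.21 at 2 h of KCl and -0.24 to 0.45 at 7 h of KCl for Slc6a9. They ranged over -0.27 to 0.0889 at 7 h of H2O2 and -0.0200 to 0.33 at 2 h of KCl for Slc1a5 and -0.14 to 0.0458 at 2 h of H2O2 and -0.31 to 0.44 at 7 h of KCl for Slc38a1, and over -0.11 to 0.28 at 7 h of KCl for Slc38a4 and -0.0766 to 0.28 at 7 h of KCl for Slc7a1. The relative efficiency in the control moved by more than 1 SD between TPM and CPM for 7 of 9 genes, to 2.80 for Slc38a1, 5.96 for Slc38a4, 3.40 for Slc7a1, 2.67 for Slc7a5, 3.64 for Slc3a2, 3.20 for Slc7a3 and 1.49 for Slc1a4. Footprint depth, 1460751 to 5168537 counts, limits what can be told of Slc7a3, which had 9 to 268 counts.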
